A study of Homo sapiens with 12 samples.

Results

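The comparison is between A375 cells that lack FTSJ1, grown with 30 nM sodium selenite, and the same cells grown with 0 nM. A375 is an established human melanoma cell line. The knockout libraries all came from 1 line, named KO1 and carrying the genotype label FTS1 KO, so the loss of FTSJ1 and other traits of that line cannot be told apart. The members are the 6 knockout libraries of 12 in the series, 3 with selenite and 3 without, taken by their labels. The other 6 are control A375 cells, titled WT, with 3 libraries at each selenite level. The assay was ribosome profiling, in which the pieces of mRNA that a ribosome covers are kept from RNase I digestion and sequenced. No mRNA level was used here, so a change in mRNA amount and a change in translation of each mRNA cannot be told apart, and counts over whole genes do not measure how often a stop codon was read through. The length of the treatment is not given in the sources used here. Whether replicate libraries are separate cultures is not stated, and p-values here reflect the spread between these libraries only. Values are relative, since each is a share of the footprints in its library.

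Selenoproteins carry selenocysteine, an amino acid inserted at a UGA codon that elsewhere ends translation. Insertion needs a stem-loop in the mRNA, its binding proteins and a dedicated tRNA, whose selenocysteine is built on the tRNA from selenophosphate, a product of selenite metabolism. FTSJ1 is a tRNA methyltransferase that adds a methyl group to the ribose of anticodon-loop nucleotides, and the series was made to ask how footprints on selenoprotein mRNAs change when the methylated form of the selenocysteine tRNA is lost. When selenium is short, cells commonly cut the synthesis of some selenoproteins, called stress-related here, more than that of others, called housekeeping.

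Library totals differed within the knockout cells, and this touches every result below. The libraries without selenite held 1114731 to 1493468 counts, whereas the 3 with selenite held 1543627, 636920 and 520989. The second and the third selenite library are called the shallow libraries. A gene with no count could still have been present at up to 1.98 to 2.703 CPM (counts scaled to the library total) in the 4 deeper libraries and up to 4.92 and 5.99 CPM in the shallow ones, as 3 counts give, a limit that covers counting error only. The third selenite library also stood apart from the other selenite libraries on 14 genes. They were chosen for a mean of at least 20 CPM in control cells and at most 5% of it in knockout cells without selenite. These genes had a median of 11.3% of their control level in the third selenite library, against 2.42% and 2.93% in the other selenite libraries. The libraries without selenite, at 1.66%, 3.56% and 2.12%, were low by the choice of genes. In the third selenite library 9 of the genes were above 10% of control. Some were under its limit of 5.99 CPM, such as PLAC8 and TMEM47 at 1.996 CPM and SMOC1 and ABCA8 at 3.993 CPM. FTSJ1 itself, one of the 14, stood at 0, 6.31 and 1.47 CPM without selenite and at 3.95, 0 and 11.98 CPM with it, and it was at 45.4 to 72.2 CPM in control cells. The groups overlapped, and the knockout response of FTSJ1 was a log2 fold change of 0.98 ± 0.94 (SE, adjusted p = 0.492). Of 21 melanocyte genes listed as markers of the cell of origin, 12 were in the table. The defining markers SOX10 (221 to 545 CPM), MITF (20.6 to 27.0 CPM) and S100B (26.1 to 45.6 CPM) were present in every knockout library. PMEL and MLANA, also chosen as defining markers, were not in the table, and DCT was at 0. MC1R (0 to 3.28 CPM), TFAP2A (3.28 to 9.91 CPM) and PAX3 (5.89 to 10.8 CPM) were thinly counted. The summed level of the 12 such genes in the table was 750.4 to 816 CPM without selenite and 926 to 1062 CPM with it, a difference mostly in SOX10, while GPNMB and EDNRB were no higher on average with selenite. The 12 markers of other cell types in the table summed to 329 to 425 CPM without and 430 to 537 CPM with selenite, most of it KRT18, a keratin that many tumour lines make. The part of any of these differences in the results was not tested.

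The 2 largest rises and the 2 largest falls that also passed the test without the shallow libraries were those of SELENOH and GPX1, and of RPS26 and HIGD1A. Their upstream sequences are shown because these 4 genes had the largest such responses in each direction. Each is the 250 bases before the RefSeq start of the gene on GRCh38.p14, read 5′ to 3′ on the strand of the gene. Capitals mark matches on either strand to 1 of 3 motifs, the GC box with the letters GGGCGG, the CCAAT box, or the core of the antioxidant response element with the letters TGACNNNGC. GPX1 lies at chr3:49357176-49358353 and its window at chr3:49358354-49358603 on the minus strand, SELENOH at chr11:57741491-57743550 with its window at chr11:57741241-57741490 on the plus strand, RPS26 at chr12:56041918-56044697 with its window at chr12:56041668-56041917 on the plus strand, and HIGD1A at chr3:42782908-42804490 with its window at chr3:42804491-42804740 on the minus strand.
GPX1: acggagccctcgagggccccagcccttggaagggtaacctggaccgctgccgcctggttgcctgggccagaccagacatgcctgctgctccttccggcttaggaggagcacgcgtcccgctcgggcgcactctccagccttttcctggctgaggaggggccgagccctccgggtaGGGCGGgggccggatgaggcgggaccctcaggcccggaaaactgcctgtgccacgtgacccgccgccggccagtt
SELENOH: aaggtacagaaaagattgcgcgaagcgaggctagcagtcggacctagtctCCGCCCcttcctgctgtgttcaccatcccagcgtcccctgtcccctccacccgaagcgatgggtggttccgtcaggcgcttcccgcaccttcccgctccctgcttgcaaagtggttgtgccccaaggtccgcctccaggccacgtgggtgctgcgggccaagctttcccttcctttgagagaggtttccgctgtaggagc
RPS26: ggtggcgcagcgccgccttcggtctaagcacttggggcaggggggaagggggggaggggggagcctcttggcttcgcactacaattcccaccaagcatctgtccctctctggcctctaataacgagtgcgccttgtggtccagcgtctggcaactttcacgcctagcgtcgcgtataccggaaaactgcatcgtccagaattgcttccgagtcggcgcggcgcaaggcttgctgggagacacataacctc
HIGD1A: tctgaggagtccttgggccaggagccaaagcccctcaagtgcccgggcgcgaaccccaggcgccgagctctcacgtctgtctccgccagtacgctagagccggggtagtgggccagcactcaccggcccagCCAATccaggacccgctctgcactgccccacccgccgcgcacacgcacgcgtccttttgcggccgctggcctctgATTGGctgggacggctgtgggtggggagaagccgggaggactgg
The GPX1 and SELENOH windows each held 1 GC box, a motif found in 42.6% of 35116 windows of the same length. HIGD1A held 2 CCAAT matches, a motif found in 32.0% of windows, and RPS26 held none of these motifs. No window of the 4 held the antioxidant response element core, which 10.9% of all windows hold, or the TATA box TATAAA, which 10.7% hold. These matches describe letters in a window and are not binding sites.

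Selenite raised footprints on 9 of the 18 selenoprotein genes tested. Of 25 selenoprotein genes listed, 19 were in the table and 18 passed the filter on low counts (SELENOP did not), and 9 of these rose and 1 fell at an adjusted p under 0.05. Over all 10467 genes tested, 10.2% rose and 10.3% fell by that rule. These shares depended on level. In 5 groups of genes by mean CPM of the 12 libraries, 2.68% rose and 1.15% fell in the lowest and 20.9% and 24.8% in the highest. The gene lists here and below are set beside all genes tested and not beside genes of like level. The median log2 fold change of the 18 was 0.69, against 0.01 over all genes tested, and 15 of the 18 were above 0. Without the shallow libraries 4 rose (GPX1, SELENOH, SELENOT and TXNRD1) and none fell, where 0.153% of all genes rose, and the median was 0.64. That fit has 1 knockout library with selenite against 3 without, takes its spread from the other 3 groups and assumes that the lone library varies like them.

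**Figure D1:**
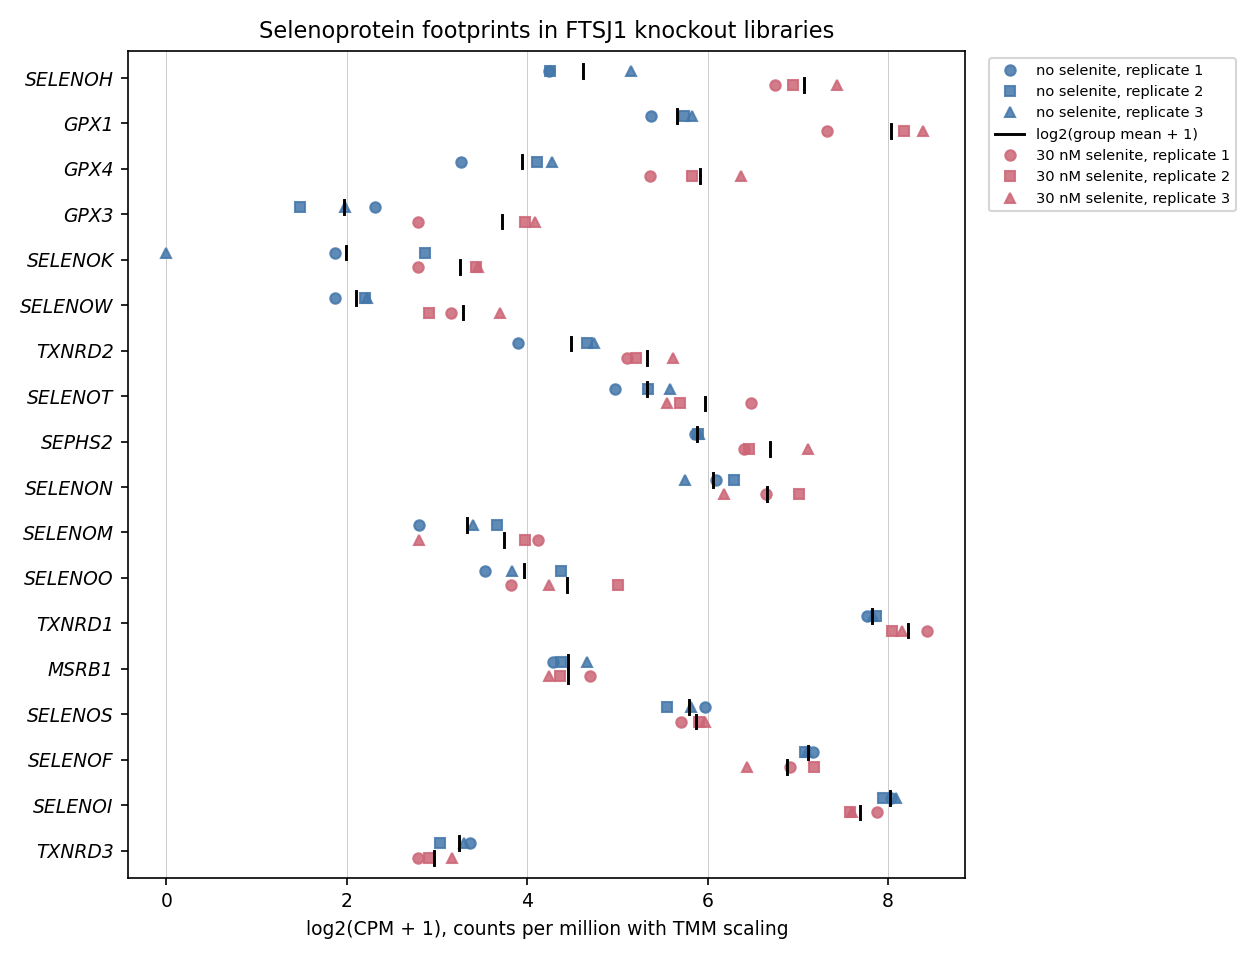
Footprint levels of the 18 tested selenoprotein genes in the 6 knockout libraries, as log2(CPM + 1), with 1 row per gene and 1 marker shape per replicate number (squares and triangles of the selenite group are the shallow libraries) and black ticks at the group means. GPX1, SELENOH and GPX4 have all their selenite points to the right of all their points without selenite, whereas the points of MSRB1, SELENOS and SELENOF are mixed.

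Among the stress-related selenoproteins, GPX1 and SELENOH rose most. GPX1 encodes the cytosolic glutathione peroxidase, which removes hydrogen peroxide and whose mRNA is known to be among the first lost when selenium is short. GPX1 stood at 40.5, 52.3 and 55.9 CPM without selenite and at 159, 288.5 and 333 CPM with it. Every selenite library was above every library without selenite, and the deep selenite library was the lowest of its group. The rise was 2.35 ± 0.30 on the log2 scale, or 5.10-fold (edgeR quasi-likelihood test, adjusted p = 0.00103), and 1.68 without the shallow libraries (adjusted p = 7.5e-05). SELENOH, a selenoprotein of the nucleolus, stood at 17.9, 18.02 and 34.6 CPM without and at 106.6, 122.9 and 172 CPM with selenite. Its lowest selenite library was above its highest library without selenite. SELENOH rose by 2.45 ± 0.28 on the log2 scale, or 5.45-fold (adjusted p = 8.95e-05), and by 2.17 without the shallow libraries (adjusted p = 0.00551). Its gene overlaps BTBD18 in the annotation, and whether counting used the strand is not stated.

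Of the other stress-related genes, GPX3, SELENOW and SELENOM were counted thinly. GPX3, a secreted glutathione peroxidase, had 2 to 9 counts per knockout library, at 3.98, 1.80 and 2.94 CPM without and 5.93, 14.75 and 15.97 CPM with selenite. The groups did not overlap, the response was 1.79 ± 0.55 (adjusted p = 0.0191), and it was 0.95 without the shallow libraries (adjusted p = 0.549). SELENOW, a small redox protein abundant in muscle, had 4 to 12 counts and stood at 2.66, 3.60 and 3.68 CPM without and 7.90, 6.56 and 11.98 CPM with selenite. Its groups did not overlap, yet its response of 1.34 ± 0.51 missed the threshold (adjusted p = 0.0551). SELENOM, an endoplasmic reticulum redox protein, had overlapping groups and a response of 0.61 ± 0.38 (adjusted p = 0.257). MSRB1, which repairs oxidised methionine, had 9 to 38 counts per knockout library and a response of 0.07 ± 0.26 (adjusted p = 0.891).

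Of the 6 housekeeping selenoproteins 5 rose and 1 fell, with a median log2 fold change of 0.77 against 1.56 for the 6 stress-related ones, of which 3 rose. Whether these medians differ was not tested. GPX4, the glutathione peroxidase that reduces lipid peroxides and holds off ferroptosis, stood at 8.63, 16.2 and 18.4 CPM without and 40.2, 55.7 and 81.9 CPM with selenite. Its groups did not overlap, and it rose by 1.95 ± 0.33 on the log2 scale, or 3.87-fold (adjusted p = 0.000829). Its response was 1.49 without the shallow libraries (adjusted p = 0.0601). TXNRD1, the cytosolic thioredoxin reductase, stood at 216.5, 232.5 and 227 CPM without and 346, 264 and 283.5 CPM with selenite. Its groups were separate by a narrow margin, with the deep selenite library the highest. TXNRD1 rose by 0.42 ± 0.11 (adjusted p = 0.00758), and by 0.28 without that deep library (adjusted p = 0.0718). TXNRD2, its mitochondrial counterpart, stood at 13.95, 24.3 and 25.8 CPM without and 33.6, 36.1 and 47.9 CPM with selenite. The groups did not overlap and TXNRD2 rose by 0.84 ± 0.24 (adjusted p = 0.0114), a call lost without the shallow libraries (0.67, adjusted p = 0.267).

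SEPHS2 makes the selenophosphate from which selenocysteine is built and is itself a selenoprotein. It stood at 57.1, 58.6 and 58.9 CPM without and at 83.6, 86.9 and 138 CPM with selenite. The 3 libraries without selenite were close together and all below the selenite libraries. SEPHS2 rose by 0.77 ± 0.17 (adjusted p = 0.00186), and by 0.52 without the shallow libraries (adjusted p = 0.186). SELENOT, an essential thioredoxin-like protein of the endoplasmic reticulum, stood at 30.6, 39.7 and 47.1 CPM without and at 88.2, 50.8 and 45.9 CPM with selenite. The groups overlapped, since the third selenite library was below one library without it. SELENOT rose by 0.77 ± 0.23 (adjusted p = 0.0221), by 1.18 without the shallow libraries (adjusted p = 0.0105), and by 0.32 without the deep selenite library (adjusted p = 0.366). SELENON, which acts in calcium handling of the endoplasmic reticulum, stood at 67.1, 77.5 and 53 CPM without and 99.4, 127.9 and 71.9 CPM with selenite. Its groups overlapped and it rose by 0.62 ± 0.17 (adjusted p = 0.00885), a call lost without the shallow libraries (0.60, adjusted p = 0.143).

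SELENOI, an enzyme of phospholipid synthesis, was the selenoprotein that fell. It stood at 261, 246 and 272 CPM without and at 234, 190.1 and 194 CPM with selenite, with groups that did not overlap. The fall was -0.32 ± 0.12 (adjusted p = 0.0468), and without the shallow libraries -0.15 (adjusted p = 0.625). The call was also lost with RLE size factors (adjusted p = 0.0552), DESeq2 (adjusted p = 0.0819) and other filters on low counts. Thinned counts (adjusted p = 0.0942) and the 6 knockout libraries alone (adjusted p = 0.0715) lost it too. The call was kept with the replicate number as a block (adjusted p = 0.0207) and without the deep selenite library (-0.44, adjusted p = 0.00941). It was also kept with the gene density trend, described below, removed (-0.505, adjusted p = 0.00376). SELENOK, a membrane protein of the endoplasmic reticulum with 0 to 9 counts per library, had a response of 1.46 ± 0.64 (adjusted p = 0.101). Without the second library lacking selenite the response of SELENOK was 2.43 and passed the threshold (adjusted p = 0.0224). SELENOO, SELENOS, SELENOF and TXNRD3 did not pass the threshold, with log2 fold changes of 0.43, 0.04, -0.23 and -0.38 and adjusted p of 0.374, 0.92, 0.259 and 0.536.

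Of 19 genes listed for making and reading selenocysteine 2 rose and 1 fell, with a median log2 fold change of -0.02. The shares were 10.5% and 5.26% beside 10.2% and 10.3% over all genes tested. Those that rose were SEPHS2, which is also a selenoprotein, and CTU1, at 1.09 ± 0.35 (adjusted p = 0.0252). CTU1 thiolates other tRNAs, so it is on the list without itself making or reading selenocysteine. The gene that fell was RPL30, a ribosomal protein that also binds the selenocysteine insertion element, at -1.27 ± 0.26 (adjusted p = 0.00698). RPL30 stood at 271, 179 and 184 CPM without and at 98.8, 81.96 and 75.9 CPM with selenite, and its groups did not overlap. Neither CTU1 (0.52, adjusted p = 0.598) nor RPL30 (-1.11, adjusted p = 0.279) passed without the shallow libraries.

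The same treatment in control cells gives the background for these responses. There 2 genes rose and 0 fell in edgeR's test, which is 0.0191% of the genes tested, with 284 genes at an unadjusted p under 0.05, and DESeq2 also gave 2 and 0. Both were selenoprotein genes, TXNRD1 at 0.73 (adjusted p = 0.000611) and SELENOW at 2.80 (adjusted p = 0.00548). In control cells GPX1 went from 58.8 to 64.7 CPM without selenite to 115 to 190 CPM with it, and its response of 1.28 had an unadjusted p of 0.00153. SELENOH went from 38.7 to 46.1 CPM to 67.0 to 117.8 CPM, a response of 1.11 with an unadjusted p of 0.000507. GPX4 went from 21.3 to 34.9 CPM to 39.2 to 67.9 CPM, a response of 0.87 with an unadjusted p of 0.00556. In each of these 3 genes the control groups did not overlap, although none passed after adjustment.

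The knockout response exceeded the control response for SELENOH by 1.33 on the log2 scale (interaction term, adjusted p = 0.0472). For GPX1 the difference between the responses was 1.07 ± 0.42 (adjusted p = 0.155) and for GPX4 1.08 ± 0.44 (adjusted p = 0.138), which did not pass. It was -0.31 for TXNRD1 (adjusted p = 0.207) and -1.46 for SELENOW (adjusted p = 0.213), the genes called in control cells. SELENOH was the 1 selenoprotein of 18 that passed this test, and the median difference over the list was 0.12. A difference that misses the threshold does not show that both lines respond alike. Without selenite SELENOH was at 17.9 to 34.6 CPM in knockout and 38.7 to 46.1 CPM in control cells, and with selenite at 106.6 to 172 CPM in knockout and 67.0 to 117.8 CPM in control cells.

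**Figure D2:**
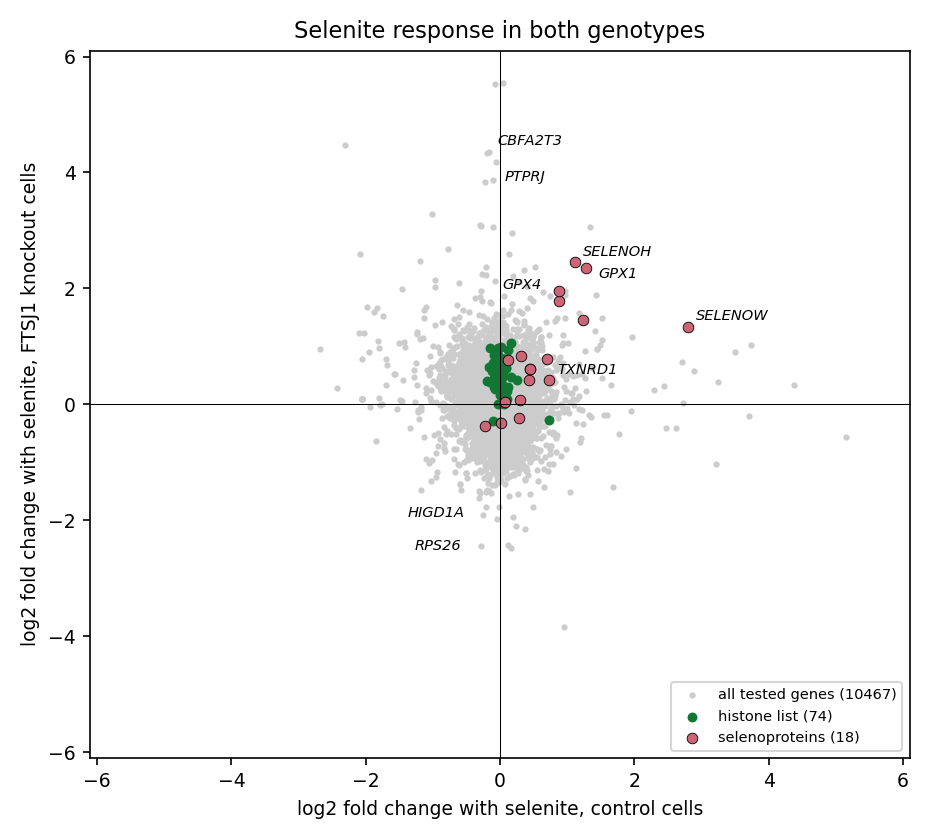
Selenite response of each tested gene in control cells (horizontal axis, log2 fold change) and in FTSJ1 knockout cells (vertical axis, log2 fold change), with the selenoprotein and histone lists coloured and named examples labelled. SELENOH, GPX1 and GPX4 lie above 0 on both axes, whereas RPS26 and HIGD1A lie far below 0 on the vertical axis and near 0 on the horizontal one.

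Across all genes the knockout response was broad with all libraries. Few genes were called without the shallow ones, in a fit of 1 selenite library that takes its spread from the other 3 groups and has less power. With all libraries 1069 genes rose and 1080 fell, together 20.5% of those tested, and 170 of them by at least 2-fold. Without the shallow libraries, when 1 selenite library was set against 3, 16 genes rose and 29 fell, together 0.43% of those tested, and 1639 genes had an unadjusted p under 0.05. Of these calls, 16 and 28 were called in the same direction with all libraries, 0.153% and 0.268% of the genes tested. Leaving out the third selenite library alone gave 727 higher and 558 lower. The gene TXNRD1 was called in both genotypes, and Spearman's correlation between knockout and control responses, which share no library, was -0.109 over 10467 genes. The difference between the responses passed for 394 genes that responded more positively in the knockout and 386 that responded more negatively, 3.76% and 3.69% of the genes tested and 7.45% together.

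Beside the selenoproteins, a small set of genes fell sharply and did so in the deep selenite library as well. RPS26, a protein of the small ribosomal subunit, stood at 71.7, 86.5 and 66.2 CPM without and at 14.5, 9.84 and 15.97 CPM with selenite. The gap between the groups was far wider than the spread within them. RPS26 fell by 2.44 on the log2 scale, to a level 5.43-fold lower (SE 0.28, adjusted p = 3.04e-06), and its response was -2.36 without the shallow libraries (adjusted p = 0.0266). In control cells its response was -0.28, and the difference between genotypes was -2.16 (adjusted p = 0.00117). RPS26 is a gene with many processed copies in the genome, and how reads shared by copies were counted is not stated. HIGD1A, a hypoxia-induced protein of the inner mitochondrial membrane, stood at 32.5, 33.3 and 39.8 CPM without and at 12.5, 3.28 and 7.99 CPM with selenite. Its groups did not overlap, and it fell by 1.91 on the log2 scale (SE 0.29, adjusted p = 3.7e-05), with -1.49 without the shallow libraries (adjusted p = 0.0251).

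RNMT, the enzyme that methylates the mRNA cap, stood at 86.3, 67.6 and 71.4 CPM without and at 31.6, 31.1 and 31.9 CPM with selenite. The 3 selenite libraries were nearly equal and all below the others. RNMT fell by 1.26 on the log2 scale (SE 0.17, adjusted p = 7.01e-06), with -1.26 without the shallow libraries (adjusted p = 0.00551). ASNSD1, whose gene overlaps ASDURF, went from 19.9, 25.2 and 25.03 CPM to 6.58, 6.56 and 11.98 CPM and fell by 1.58 (SE 0.31, adjusted p = 0.000676), with -1.81 without the shallow libraries (adjusted p = 0.0279). PPP3R1, the regulatory subunit of the phosphatase calcineurin, went from 164.7, 134 and 122 CPM to 80.3, 50.8 and 63.9 CPM and fell by 1.06 (SE 0.15, adjusted p = 2.22e-05), with -0.81 without the shallow libraries (adjusted p = 0.029). In none of these 3 genes did the groups overlap, and their responses in control cells were -0.02 for RNMT, 0.13 for ASNSD1 and 0.17 for PPP3R1.

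CT45A genes, a family of near-identical cancer-testis antigen genes on the X chromosome, also fell in all selenite libraries. CT45A1 stood at 293.5, 232.5 and 280.4 CPM without and at 154, 129.5 and 116 CPM with selenite, with no overlap. It fell by 0.99 (SE 0.12, adjusted p = 2.47e-06), with -0.81 without the shallow libraries (adjusted p = 0.00551). CT45A3 fell by 0.98, and CT45A2, CT45A8 and CT45A9 by 1.03. The last 3 had identical counts in every library, and the 9 CT45A genes tested had 5 distinct sets of counts, so they are not independent measurements.

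TXN encodes thioredoxin, the substrate of the selenoprotein TXNRD1. It stood at 404, 346 and 335 CPM without and at 218, 175 and 164 CPM with selenite. Every selenite library was below every other, and TXN fell by 0.94 (SE 0.11, adjusted p = 2.47e-06), with -0.74 without the shallow libraries (adjusted p = 0.00633). Its response in control cells was 0.02, and its reductase TXNRD1 rose by 0.42 in the knockout cells. Of 17 peroxiredoxin and thioredoxin genes, 2 rose and 2 fell (11.8% each, near the shares over all genes tested), the others being SRXN1 (1.34), which reactivates peroxiredoxins, PRDX2 (0.44) and GLRX2 (-0.57).

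Other large falls kept much of their size without the shallow libraries but not their call. RRAS2, a relative of the RAS proteins, went from 29.2, 28.8 and 22.1 CPM to 8.56, 4.92 and 3.99 CPM and fell by 1.98 (SE 0.36, adjusted p = 0.00028), with -1.63 without the shallow libraries (adjusted p = 0.0679). CRYZL1, C9orf85, RGS17, FAM72A, IFTAP and PPP2R3C fell by 1.33 to 1.54, with no overlap between groups in any. None of these 6 passed without the shallow libraries (adjusted p from 0.0833 to 0.337), where their log2 fold changes were -0.92 for PPP2R3C to -1.61 for FAM72A.

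The 2 largest rises among the named genes were uneven between libraries. CBFA2T3, a transcriptional corepressor, stood at 5.31, 7.21 and 2.21 CPM without and at 73.7, 27.9 and 219.6 CPM with selenite. PTPRJ, a receptor-type tyrosine phosphatase, stood at 64.4, 108.1 and 104.5 CPM without and at 245, 3736 and 1060 CPM with selenite. In both genes all selenite libraries were above all others, yet they differed widely among themselves. The log2 fold changes were 4.36 ± 1.07 for CBFA2T3 (20.5-fold, adjusted p = 0.024) and 4.18 ± 1.12 for PTPRJ (18.1-fold, adjusted p = 0.0327). Without the shallow libraries they were 3.91 and 1.42, and neither gene was called. In control cells PTPRJ averaged 1503 CPM without and 1442 CPM with selenite. It was uneven there as well, at 497.4, 1448 and 2565 CPM without and 1221, 731.2 and 2375 CPM with selenite. RPL37, of the large ribosomal subunit, went from 44.5, 37.9 and 62.6 CPM to 106.6, 193 and 199.6 CPM (1.72 ± 0.30, adjusted p = 0.00349). PAM16, part of the mitochondrial protein import motor, went from 11.3, 12.6 and 13.3 CPM to 32.3, 42.6 and 43.9 CPM (1.62 ± 0.28, adjusted p = 0.00017). Neither overlapped between groups, and without the shallow libraries their adjusted p were 0.0601 for RPL37 and 0.0661 for PAM16. PTPN21, LRFN3 and GHDC rose by 1.94, 1.86 and 1.57 and, without those libraries, had log2 fold changes of 1.52, 1.77 and 1.28 that were not called.

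Rises that also passed without the shallow libraries included a pair of melanoma genes. SOX10, the transcription factor of the neural crest and melanocytes, stood at 221, 284 and 305 CPM without and at 407, 528 and 545 CPM with selenite. The groups did not overlap and SOX10 rose by 0.86 ± 0.12 (adjusted p = 9.24e-06), with 0.59 without the shallow libraries (adjusted p = 0.0403). Its gene overlaps POLR2F in the annotation. CSPG4, a surface proteoglycan of melanoma cells, stood at 329, 413 and 358.5 CPM without and at 542, 621 and 677 CPM with selenite, again with no overlap. CSPG4 rose by 0.74 ± 0.10 (adjusted p = 6.81e-06), with 0.56 without the shallow libraries (adjusted p = 0.0228). Both were lower in knockout than in control cells before treatment, where SOX10 averaged 501 CPM and CSPG4 920.3 CPM. Of the 10 melanocyte genes tested SOX10 alone passed, and the list's median was -0.14. RETSAT, which saturates retinol, rose by 0.94 ± 0.16 (adjusted p = 0.000153) and MRPL28, of the mitochondrial ribosome, by 0.73 ± 0.12 (adjusted p = 9.05e-05), and both passed without the shallow libraries (adjusted p = 0.0471 and 0.026).

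Histone genes were the list with the most members that rose. Histones package DNA, and the replication-dependent ones are made mostly in S phase from mRNAs without a poly(A) tail. Of 74 core and linker histone genes, 54 rose (73%, against 10.2% of all genes tested) and 1 fell, with a median log2 fold change of 0.51. Of these, 5 rose and none fell without the shallow libraries, when the median was 0.32. In control cells none of the 74 passed. H1-4, a linker histone, stood at 1405, 1685 and 1923 CPM without and at 2442, 3113 and 3534 CPM with selenite. H2AC13 stood at 912, 1160 and 1146 CPM without and at 1739, 2303 and 2296 CPM with it. Neither gene's groups overlapped, and the deep selenite library was the lowest selenite library in both. H1-4 rose by 0.86 ± 0.12 (adjusted p = 8.11e-05) and H2AC13 by 0.98 ± 0.11 (adjusted p = 2.47e-06). H4C9 (0.93), H2AC11 (0.77) and H3C3 (0.69), the last singled out after its values were seen, also passed without the shallow libraries, whereas H2BC6 (1.07), H2AC25 (0.98) and H2AX (0.97) did not. The list took 5.14% to 6.28% of counts without selenite and 7.28%, 8.52% and 9.11% with it, highest in the shallowest library. The part of library preparation in this was not tested.

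Of 34 mitotic genes 14 fell (41.2%, against 10.3% of all genes tested), 1 rose and 19 were not called, with a median of -0.34, and without the shallow libraries none passed and the median was -0.16. SMC4, of the condensin complex, fell by 0.64 (adjusted p = 0.00024), NUF2, of the kinetochore, by 0.62 (adjusted p = 0.00186), and CENPE, a kinetochore motor, by 0.55 (adjusted p = 0.0134). FOXM1, a transcription factor for mitotic genes, rose by 0.62 (adjusted p = 0.0294). Genes of DNA replication and the start of S phase had 8 of 37 higher (21.6%) and 7 lower (18.9%) and a median near 0. CCNE2, a cyclin of that step, fell by 1.00 (adjusted p = 0.00651), whereas CDT1, which licenses replication origins, rose by 0.73 (adjusted p = 0.0101).

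**Figure D3:**
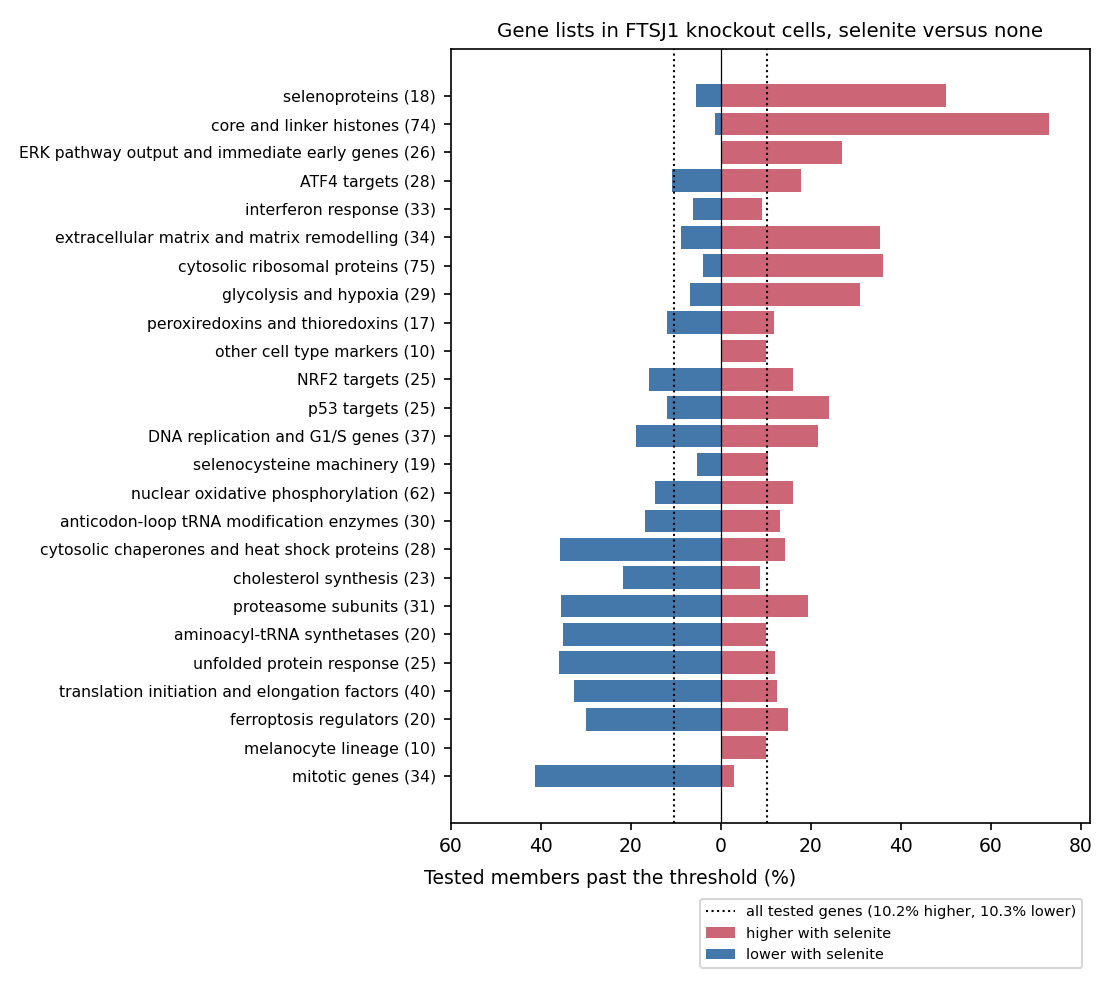
Percent of the tested members of each gene list that rose (right of 0) or fell (left of 0) with selenite in knockout cells at an adjusted p under 0.05, with the number of members tested in brackets and dotted lines at the shares over all genes tested. The sublists of stress-related and housekeeping selenoproteins and the metallothionein list are not drawn; of the lists drawn, histone and selenoprotein genes reach furthest to the right, 54 of 74 and 9 of 18, and mitotic genes furthest to the left, 14 of 34.

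Of 75 cytosolic ribosomal protein genes 27 rose (36%, against 10.2% of all genes tested) and 3 fell (4%, against 10.3%), with a median of 0.19, and RPLP1 (0.89, adjusted p = 0.00253) rose while RPS26 and RPL30 fell. Of 40 initiation and elongation factor genes 5 rose (12.5%) and 13 fell (32.5%), with a median of -0.13. EIF2S1, the subunit of eIF2 that stress kinases phosphorylate, stood at 289, 227 and 266 CPM without and at 172, 149 and 136 CPM with selenite. The groups did not overlap and it fell by 0.76 (SE 0.12, adjusted p = 6.69e-05). EIF4E, the cap-binding protein, EIF3J and EIF2S2 fell by 0.91, 0.83 and 0.81. Of 20 aminoacyl-tRNA synthetase genes 7 fell (35%) and 2 rose (10%), among them RARS1 (-0.54), LARS1 (-0.42) and EPRS1 (-0.42). Without the shallow libraries RPS26 was the ribosomal gene that passed, EIF3M was the factor that fell (-0.49, adjusted p = 0.0445), and no synthetase passed. EIF3M, a subunit of eIF3, was singled out after its values were seen.

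Of 30 anticodon-loop tRNA modification genes, the group to which FTSJ1 belongs, 4 rose and 5 fell, shares of 13.3% and 16.7% that are near the 10.2% and 10.3% of all genes tested. CDKAL1, which thiomethylates a lysine tRNA, fell by 0.97 (adjusted p = 0.0256), TYW3, of the wybutosine pathway that follows FTSJ1 methylation, fell by 0.90 (adjusted p = 0.00955), and PUS1, a pseudouridine synthase, rose by 0.77 (adjusted p = 0.00301). None of the list passed without the shallow libraries.

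Of 25 unfolded protein response genes 9 fell and 3 rose, shares of 36% and 12% against 10.3% and 10.2% over all genes tested. HSP90B1, the endoplasmic reticulum member of the HSP90 family, stood at 4034, 3185 and 3367 CPM without and at 2586, 2115 and 2202 CPM with selenite. It did not overlap between groups and fell by 0.62 (SE 0.10, adjusted p = 8.06e-05). PDIA3, a disulfide isomerase, fell by 0.69 and DNAJB9, a co-chaperone, by 0.98, whereas ERN1, a sensor of the response, rose by 1.29. Of 28 cytosolic chaperone genes 10 fell (35.7%) and 4 rose (14.3%), among them the chaperonin subunits TCP1 (-0.59) and CCT8 (-0.59), DNAJB4 (-0.95) and HSF1 (0.65), the heat shock transcription factor. Of 31 proteasome genes 11 fell (35.5%) and 6 rose (19.4%), with PSMA4 (-0.72), PSMD14 (-0.64), PSMD1 (-0.55) and PSMD12 (-0.51) the largest. In the highest of 5 groups of all tested genes by mean CPM 24.8% fell and 20.9% rose. Whether these lists differ from genes of like level was not tested. No gene of these 3 lists passed without the shallow libraries, where PSMA4 was at -0.51 (adjusted p = 0.0577).

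Of 25 NRF2 targets, genes of the antioxidant response, 4 rose and 4 fell (16% each, against 10.2% and 10.3% of all genes tested), with a median of 0.06, and FTL, the ferritin light chain, rose by 0.92 (adjusted p = 0.00999). Of 20 ferroptosis regulators other than GPX4, 3 rose (15%) and 6 fell (30%). ACSL4, which loads polyunsaturated fatty acids into lipids, stood at 198, 163 and 188 CPM without and at 130, 105 and 85.9 CPM with selenite, without overlap, and fell by 0.73 (adjusted p = 0.000352). SLC7A11, the cystine importer, fell by 0.74 (adjusted p = 0.00681) and VDAC3, a mitochondrial channel, by 0.60 (adjusted p = 0.00106). Of 28 ATF4 targets 5 rose (17.9%) and 3 fell (10.7%), with PYCR1 (0.49), CEBPB (0.51) and XPOT (-0.61) among them. Of 2 metallothionein and zinc genes tested none passed, with MT2A at -0.05 (adjusted p = 0.942) and SLC30A1 at -0.24 (adjusted p = 0.251). Without the shallow libraries TXNRD1 and TXN were the calls in the NRF2 list and none of the ferroptosis list passed.

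Of 29 glycolysis and hypoxia genes 9 rose (31%, against 10.2% of all genes tested) and 2 fell (6.9%, against 10.3%), with ENO2 (0.78), SLC2A1 (0.47) and PGAM1 (0.50) among those that rose and P4HA1 (-0.57) among those that fell. Of 62 nuclear respiratory chain and ATP synthase genes 10 rose (16.1%) and 9 fell (14.5%), with ATP5PF (0.88), NDUFS8 (0.78), ATP5F1D (0.77) and NDUFS7 (0.70) the largest named. Of 23 cholesterol synthesis genes 2 rose (8.7%) and 5 fell (21.7%). MSMO1, a sterol oxidase, fell by 0.84 (adjusted p = 0.00013), STARD4, a sterol carrier, by 0.76 and CYP51A1 by 0.62, while SREBF2, their transcription factor, rose by 0.54 (adjusted p = 0.00173). No gene of these 3 lists passed without the shallow libraries.

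Of 34 matrix genes 12 rose (35.3%) and 3 fell (8.82%), and of 26 genes of ERK output and immediate early response 7 rose (26.9%) and none fell, against 10.2% higher and 10.3% lower over all genes tested. COL6A1, a collagen, stood at 303, 374 and 320 CPM without and at 479, 534 and 569 CPM with selenite, without overlap, and rose by 0.66 (adjusted p = 8.06e-05). COL4A2 rose by 0.66 and COL4A1 by 0.60, and FBN2, thinly counted, by 2.12. ETV4 (0.77) and SPRY4 (0.54), outputs of the ERK pathway, and the immediate early genes IER2 (0.53) and JUNB (0.50) rose. Of 33 interferon response genes 3 rose (9.09%) and 2 fell (6.06%), no more than over all genes tested, the former being HLA-B (1.13), HLA-C (0.86) and IFITM3 (0.64), and IFIT3 fell by 0.91. HLA-B, which presents peptides to T cells, stood at 41.2, 56.8 and 40.5 CPM without and at 86.9, 103 and 117.8 CPM with selenite, without overlap. Of 25 p53 targets 6 rose (24%) and 3 fell (12%), with CDKN1A, the cell cycle inhibitor p21, at 0.66 (adjusted p = 0.000536), FDXR at 0.87, PHLDA3 at 0.66 and RPS27L at -0.80. Without the shallow libraries MDM2, the ligase that degrades p53, was the p53 target that fell (-0.73, adjusted p = 0.0436), a gene singled out after its values were seen, and no other gene of these lists passed, with HLA-B at 0.92 (adjusted p = 0.0556). Of the 10 markers of other cell types tested KRT18 rose by 0.39 (adjusted p = 0.0171) and the others did not pass.

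The response also varied with where a gene lies and with its genomic length. The number of other protein-coding genes within 1 Mb was counted for each gene, and Spearman's correlation of this number with the knockout response was 0.432 over 10461 genes, a description across genes that share libraries. It was 0.365 without the shallow libraries and -0.0725 for the response in control cells. Genes were split into 5 groups of about equal size by this number. In the sparsest group, 0 to 10 neighbours, the median log2 fold change was -0.22, with 2.01% of genes higher and 16.3% lower. In the densest group, 48 to 112 neighbours, the median was 0.34, with 24.2% higher and 1.51% lower. On chromosome 19, the most gene-dense, 25.5% of 655 genes rose and 0.305% fell, whereas on chromosome 13, at a median of -0.26, 2.12% rose and 16.4% fell. Single libraries differed in this trend within a group as well. Against the mean of the libraries without selenite, the correlation was -0.265, 0.245 and 0.0137 in those libraries themselves and 0.367, 0.383 and 0.376 in the selenite libraries. GPX1 has 74 neighbours, GPX4 99, SELENOH 41, RPS26 69, RNMT 9 and TXN 7. With the trend removed from each library, GPX1, SELENOH, GPX4, RPS26, RNMT and TXN kept their calls, SEPHS2 did not (0.39, adjusted p = 0.108), and the histone median was 0.25. The split of calls was then 494 higher and 788 lower, 38.5% higher. Genomic length had a Spearman's correlation of -0.279 with the knockout response and 0.0549 with the control response. Of the shortest of 5 groups of genes by length 22.3% rose and 4.11% fell, and of the longest 3.25% and 9.56%. Length and gene density were not separated from each other.

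**Figure D4:**
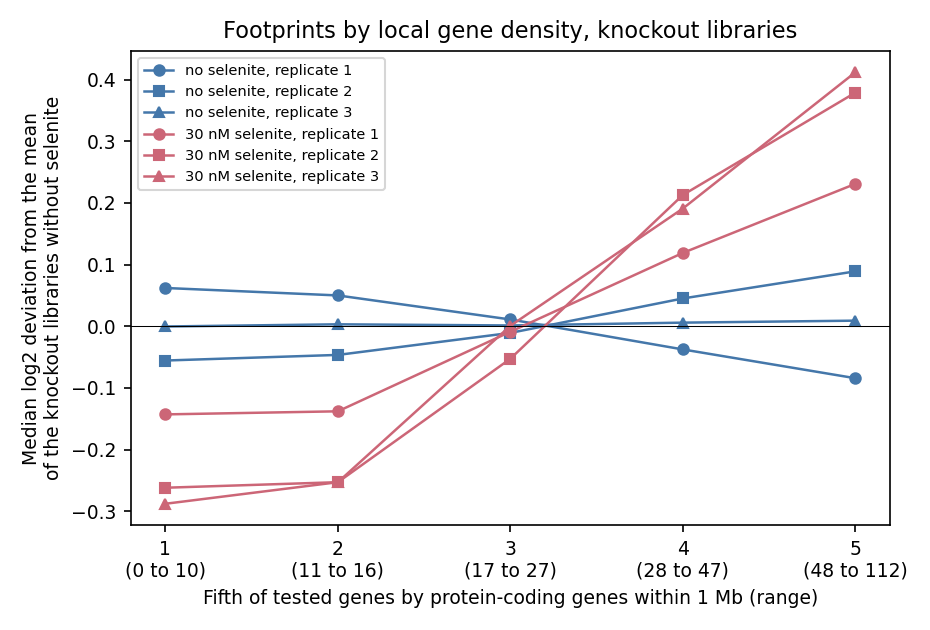
Selenite response in knockout cells by the number of protein-coding genes within 1 Mb, in 5 groups of genes from sparse to dense surroundings, with the median deviation of each knockout library on the log2 scale. The selenite libraries run from below 0 in the sparsest group (-0.14 to -0.29) to above 0 in the densest (0.23 to 0.41).

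**Figure D5:**
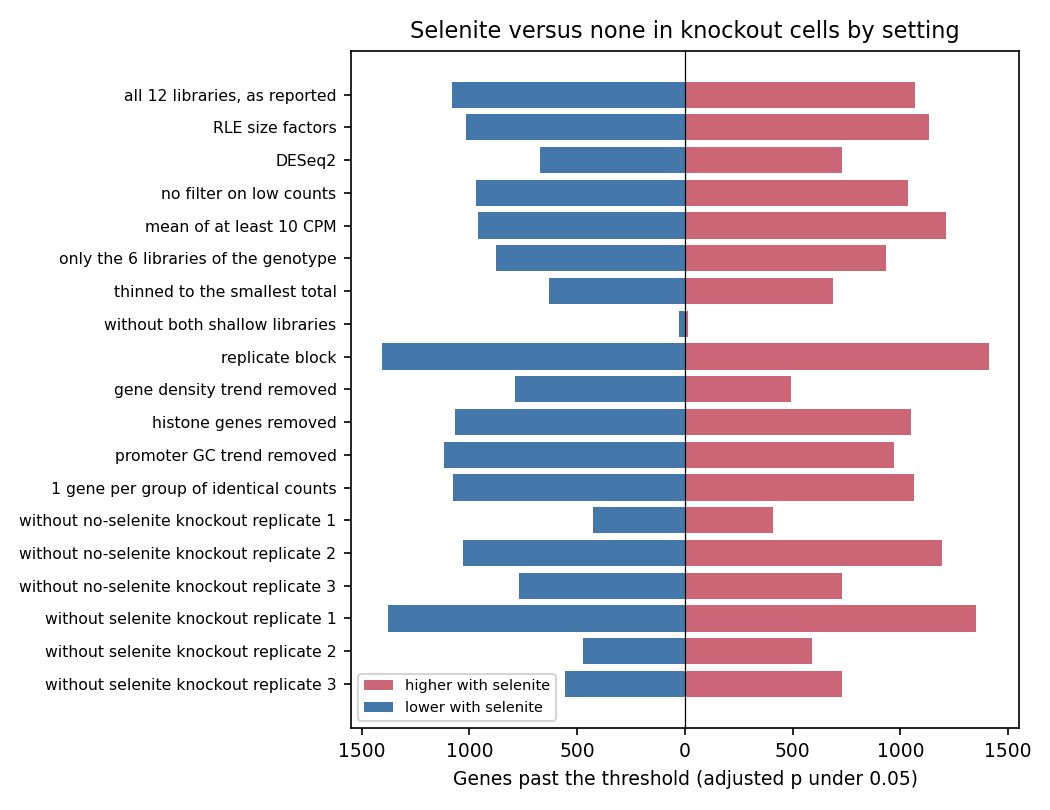
Number of genes past the threshold, higher and lower, in the knockout comparison with all libraries and under the processing alternatives. The settings that leave out a control library are not drawn. The counts drop from 1069 and 1080 with all libraries to 16 and 29 without the shallow libraries.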

How the data were processed

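The 12 libraries of A375 cells, 3 in each of 4 groups, hold ribosome footprints. Per the labels' protocols, lysates made with cycloheximide and tigecycline were digested with RNase I, short fragments were cut from a gel, and riboPOOL probes removed ribosomal RNA. The primer carried molecular identifiers, and their use in counting, the counting tool, the annotation and the use of strand are not given in the sources used here. The submitters' processing notes name Trim Galore 0.6.10, STAR 2.7.9a, DESeq2 and GRCh38 with no roles. The authors deposited raw counts per gene for 13074 genes, 16 of them without any count, and a normalized signal, which was checked to be those counts divided by 1 factor per library and was not used further.

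These counts were tested with edgeR 4.0.16 (limma 3.58.1, R 4.3.3). The filter filterByExpr (minimum count 10, minimum total 15) kept 10467 genes. After TMM scaling, 1 quasi-likelihood model with a coefficient for each group covered all 12 libraries, leaving 8 residual degrees of freedom. Benjamini-Hochberg adjustment ran over all genes tested, with calls at an adjusted p under 0.05. Approximate standard errors (SE) were computed as the log2 fold change, selenite over none, divided by the root of F. Totals of 520989 to 1543627 counts per library set the precision. The alternatives were other size factors, DESeq2 1.42.0, other filters, thinning, a replicate block, removed trends and left-out libraries. On simulated knockout data with 200 changed genes of 10467, the test called 110 genes with 5 false calls and recovered 17.9% of 1.5-fold, 49.3% of 2-fold and 90.9% of 4-fold changes. The simulation drew each gene independently, without the gene density trends between libraries, and had fewer changed genes than the 2149 called here. Its false calls and recovery therefore do not measure those in these data.

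Symbols were matched to RefSeq GRCh38.p14, 12978 directly and 65 by synonym, with 31 unmatched, and coordinates and upstream sequences come from it. Named genes are FTSJ1, the tested selenoproteins, the 10 largest called rises and falls that averaged 10 CPM or more over the knockout libraries and did not overlap, up to 10 of each that also passed without the shallow libraries, the 5 highest and lowest differences between genotypes, and up to 4 called members of each of 28 gene lists by size (or 2 with the lowest p where none passed). The members and the lists were chosen with earlier results of these data known.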

Additional observations from a re-analysis of the deposited data

Results flagged for a closer look

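The results below are those in which the knockout response to selenite differed from the control response by the interaction term at an adjusted p under 0.05. This held for 394 genes higher and 386 lower, and for 5 and 13 without the shallow libraries. Differences are knockout minus control, on the log2 scale, and no cause was tested.

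The difference was positive for genes that rose in the knockout cells. It was 1.33 for SELENOH, 2.76 for PAM16, 2.36 for RPL37, 2.15 for LRFN3 and 1.63 for GHDC. CEL, a secreted lipase, had 1.95 and AGPAT2, an enzyme of phosphatidic acid synthesis, had 1.88. Responses in control cells were negative for CEL (-0.68), AGPAT2 (-1.04), PAM16 (-1.14), RPL37 (-0.65), LRFN3 (-0.29) and GHDC (-0.06), and positive for SELENOH (1.11). The histone genes had 1.01 for H2AC13, 0.888 for H1-4, 0.808 for H4C9 and 0.787 for H2AC11. SOX10 had 0.951, CSPG4 0.85, RETSAT 1.05 and MRPL28 0.87. Among matrix and surface genes it was 0.932 for COL6A1, 0.721 for COL4A2, 0.645 for COL4A1, 1.23 for HLA-B and 0.958 for HLA-C. The keratin KRT18 had 0.556. ETV4 had 0.966, SPRY4 0.653 and CDKN1A 0.764. FTL had 1.22, ENO2 1.00, SREBF2 0.586, ATP5PF 0.833, NDUFS8 0.788 and ATP5F1D 0.718.

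The difference was negative for genes that fell in the knockout cells. It was -2.16 for RPS26, -1.94 for RRAS2, -1.81 for CRYZL1, -1.71 for ASNSD1, -1.66 for HIGD1A and -1.28 for PPP2R3C. ADPRM had -1.89 and MOB4 -1.77, each with a positive response in control cells. RNMT had -1.24, PPP3R1 -1.22 and TXN -0.953. In the CT45A family it was -1.09 for CT45A2, CT45A8 and CT45A9, which share their counts, -1.02 for CT45A1 and -1.03 for CT45A3. Folding and turnover genes had -1.14 for DNAJB9, -0.572 for PDIA3, -0.544 for HSP90B1, -0.565 for TCP1, -0.704 for CCT8, -0.663 for PSMA4 and -0.611 for PSMD12. Translation genes had -0.813 for EIF2S1, -0.663 for XPOT, -0.513 for RARS1 and -0.479 for EPRS1. Lipid and mitochondrial genes had -0.788 for ACSL4, -0.777 for VDAC3, -0.786 for MSMO1 and -0.621 for CYP51A1. Cell cycle genes had -1.16 for CCNE2, -0.683 for PRIM1, -0.664 for SMC4, -0.716 for NUF2 and -0.69 for CENPE. P4HA1 had -0.639 and RPS27L -0.809.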

How the results depend on the processing

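GPX1, SELENOH, RPS26, HIGD1A, RNMT, ASNSD1 and TXN kept their call under every alternative in which they were tested. Of the 123 named genes that passed, none reversed under any setting, and 100 lost their call without the shallow libraries, 43 without the first library lacking selenite, 36 with the gene density trend removed, 34 without either shallow library alone and 32 with thinned counts. The knockout counts of 1069 higher and 1080 lower became 688 and 631 when libraries were thinned to the total of the smallest, 16 and 29 without the shallow libraries, and 494 higher with the gene density trend removed, while DESeq2 gave 674 lower. Leaving out 1 library at a time gave 410 to 1350 higher and 428 to 1378 lower, the lowest without the first library lacking selenite and the highest without the deep selenite library. In control cells the 2 higher became 1 at a mean of at least 10 CPM and 4 with the 6 control libraries alone, and leaving out 1 library gave 1 to 3 higher and 0 to 1 lower. The difference between genotypes became 215 higher and 164 lower with thinned counts, 5 and 13 without the shallow libraries, and 148 and 210 with the gene density trend removed, and leaving out 1 library gave 57 to 810 and 56 to 894. With the replicate number as a block the control counts were 6 higher and 5 lower, those of the difference 748 and 723, and those of the knockout 1411 and 1408. Same-numbered knockout libraries deviated together with r of 0.231, 0.181 and 0.0232, and the third library lacking selenite correlated best with another number, so the numbers were not taken to pair the libraries. Directions reversed for uncalled genes: MSRB1, at 0.07, was -0.0308 thinned, -0.28 with the density trend removed, and from -0.145 to 0.189 without single libraries. SELENOO was -0.117 and SELENOS -0.0947 without the shallow libraries, SELENOS ran from -0.0414 to 0.145 and MT2A from -0.188 to 0.144 without single libraries, and TXNRD3 was 0.34 thinned. The cause was not tested beyond fewer samples or counts. Removing the promoter GC trend and keeping 1 gene per set of identical counts were added after seeing the data, and the planned removal of an amino acid composition trend was not run for want of protein sequences. Depth limits genes of few counts, such as GPX3, SELENOW and SELENOK, most.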

Other observations

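CHADL was low in knockout cells without selenite, at 2.66, 8.11 and 2.21 CPM, and uneven between libraries of the other groups. It stood at 100.7, 8.20 and 511.1 CPM in knockout cells with selenite. In control cells it was at 558, 70.4 and 2.13 CPM without and 84.96, 211 and 306 CPM with selenite. ANKRD30A, at 85.3 to 106 CPM in the control libraries, was at 0 in 5 knockout libraries and at 24.0 CPM in the third selenite library, and IL24 was at 0 to 3.28 CPM in those 5 and at 19.96 CPM in that library. Both genes are among the 14 chosen for low levels in knockout cells without selenite.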
